A study of Marchantia polymorpha with 6 samples.

Results

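The male sex chromosome of the liverwort Marchantia polymorpha is represented in the deposited count table by 113 gene models, out of 19287 in all. They were chosen by their sequence names alone, 63 on Chr_Y_A and 50 on Chr_Y_B. They were described in 6 poly(A) RNA libraries of thallus, the leafless plant body that makes up the haploid generation. The 3 Tak-1_WT libraries came from different plants of Tak-1, a male wild-type line, and the 3 Mpbes1 libraries from mutants of the BES1 transcription factor gene that were generated by CRISPR/Cas9 editing. All plants were 30 days old, grew under the same long-day light cycle, received no treatment, and were sampled with their apical notches, where the meristem lies. Guide, allele and number of independent mutant lines: not given in the sources used here. The BES1 transcript was not used to check the labels, because no name was paired with the identifiers of the table.

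In liverworts sex is set in the haploid generation by a chromosome that each plant carries in a single copy. Females carry a U chromosome and males a V chromosome, formerly named X and Y. Much of these chromosomes does not recombine with a partner. Some V-linked genes have a counterpart on U and serve functions shared by both sexes, while others occur in males alone and are known chiefly from the male reproductive organs, the antheridia, and from sperm formation. Which of the 113 models belong to which kind was not analysed here, since 0 of the 113 identifiers occur in the reference table of names. Models are therefore given by their order along the sequence and by the coordinates of the deposited table, counted from 1. The sequences of their transcripts were not used here. Markers that would show antheridia in the samples could not be looked up for the same reason.

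Reads of the 113 models were found in all 6 libraries. Library totals lay between 11597664 and 17741253 counts. Chr_Y_A took 0.137%, 0.134% and 0.135% of all counts in the Tak-1 libraries and 0.132%, 0.135% and 0.137% in the mutant ones, overlapping groups (p = 1.0 by the exact permutation test, two-sided). Chr_Y_B took 0.0625%, 0.0625% and 0.0571% in the 3 Tak-1 libraries and 0.0661%, 0.0647% and 0.0659% in the 3 Mpbes1 libraries. The Mpbes1 values for Chr_Y_B all lay above the Tak-1 values, with p = 0.10 by the exact permutation test, two-sided, which is the smallest p that 3 against 3 libraries allow. At least 1 read was seen for 47, 44 and 43 of the models in the wild type and for 45, 44 and 44 in the mutant (p = 1.0 by the same exact test). At least 5 reads were seen for 36, 35 and 36 models in the wild type and for 32, 33 and 33 in the mutant, groups that did not overlap (p = 0.10 by the same exact test). In whole thallus, fewer cells of a type and less RNA per cell cannot be told apart.

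Most of the models had almost no reads in Tak-1 thallus, and a small number carried nearly all of them. Levels are given as TPM, computed from the counts and the deposited exon length, so that models of different length can be set side by side. A model was called silent with at most 3 counts over the 3 Tak-1 libraries, weak under 1 TPM, intermediate from 1 TPM to under 10 TPM, and strong from 10 TPM upward. By these limits 73 models were silent (64.6%), 7 weak (6.19%), 12 intermediate (10.6%) and 21 strong (18.6%). Among the 19174 models on all other sequences 26.9% were silent, 10.1% weak, 15.5% intermediate and 47.5% strong. The 21 strong models held 98.0% of the Tak-1 counts of the 113. Both sequences were alike in this, with 41 of 63 models silent and 12 strong on Chr_Y_A, and 32 of 50 silent and 9 strong on Chr_Y_B. Set against other sequences these shares are a description, without a test of the difference.

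The silent models stayed near 0 in the mutant. Summed over 3 libraries of each genotype, the 73 of them held 16 counts in the wild type and 27 in the mutant. There were 58 models (51.3% of the 113) with no read in any of the 6 libraries, against 15.5% of the models elsewhere. Depending on exon length, 0 counts over the 3 Tak-1 libraries allow such a model a level of up to 0.0338 to 0.611 TPM. Another 4 models had reads in Mpbes1 alone, at most 5 counts each, and 5 had reads in Tak-1 alone, at most 3 counts each. No model silent in Tak-1 had more than 6 counts in Mpbes1. The models nearest the limit were model 3 of Chr_Y_A and model 13 of Chr_Y_B with 3 counts each, inside the silent class, and model 21 of Chr_Y_A with 4 counts, outside it. Between genotypes 71 of the 73 silent models kept their class, and the 2 that did not were counted as weak in Mpbes1.

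**Figure D1:**
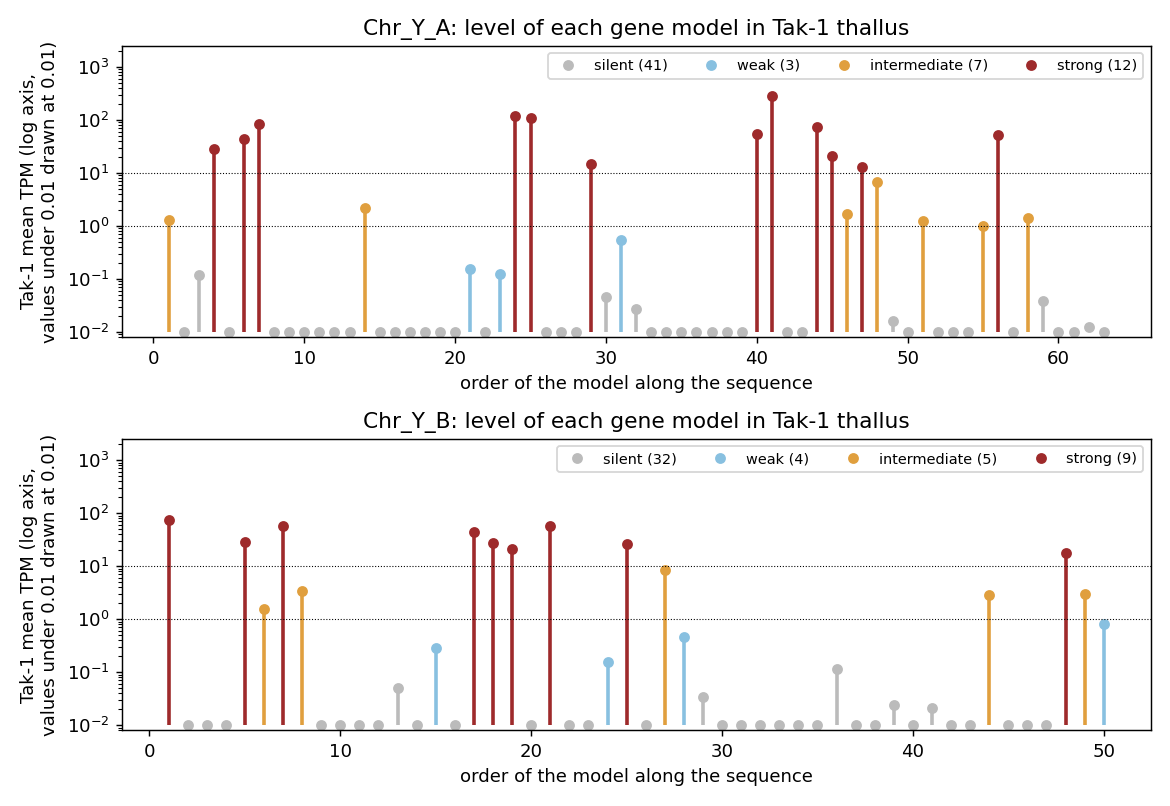
Mean TPM over the 3 Tak-1 libraries (log axis) for each of the 63 models of Chr_Y_A and the 50 of Chr_Y_B, in their order along the sequence. Colours mark the level classes and dotted lines stand at 1 and 10 TPM. Of the strong models 8 of 12 on Chr_Y_A and 3 of 9 on Chr_Y_B have another strong model next to them, and values under 0.01 TPM are drawn at 0.01.

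The highest level belonged to MapolyY_A0041.v3.1, which is model 41 of Chr_Y_A (2004870 to 2008633, plus strand). It had 274, 264 and 310 TPM in the Tak-1 libraries and 265, 287 and 292 TPM in the Mpbes1 libraries, overlapping groups. This put it at the 97.3 percentile of all 19287 models by Tak-1 level, with 2 exon blocks and an exon length of 1773 bases. An exon block is a stretch covered by exons of any isoform. Model 24 of Chr_Y_A (1166857 to 1184265, minus strand) followed with 119 ± 18.6 TPM in the wild type (SD, n = 3), from 97.2 to 130.2 TPM, and 112 ± 1.71 in the mutant. It has 17 exon blocks, the most on that sequence. Its neighbour, model 25 (1204488 to 1208653, plus strand), reached 108 TPM in Tak-1, from 97.1 to 116 TPM, with 3 exon blocks. The libraries of models 24 and 25 overlap, while every library of model 41 lies above them and every library of the other strong models below. Between 52.0 and 84.4 TPM stood 7 more models, which complete the 10 highest.

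Of those 7, model 7 of Chr_Y_A (174148 to 185023) stood at 84.4 ± 4.34 TPM in the wild type and model 44 (2194727 to 2204659) at 72.3 ± 1.51. Model 40 (1997808 to 2001400), the direct neighbour of the strongest model, stood at 53.8 ± 3.05 TPM, and model 56 (2885043 to 2904493) at 52.0 ± 2.01 TPM (SD, n = 3). The levels of these 4 separate model 7 from the other 3 and model 44 from the last pair, which overlap. On Chr_Y_B the strongest was model 1 (20946 to 33794, plus strand), with 73.5 ± 5.07 TPM in the wild type and 77.9 ± 3.33 in the mutant (SD, n = 3), which overlap. Model 21 (937256 to 964026) had 57.9 ± 3.91 TPM and model 7 (409342 to 442469) had 56.3 ± 2.54 TPM in Tak-1 (SD, n = 3), values that overlap between libraries. The remaining 11 strong models ran from 13.1 to 44.0 TPM. Among the 21 strong models the coefficient of variation between the 3 Tak-1 plants had a median of 6.76%, against 7.81% for the 9102 strong models elsewhere.

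Strong models were unevenly placed along both sequences. Across the 63 models of Chr_Y_A the correlation of log2(TPM + 0.1) with start position was -0.03 (Pearson) and 0.05 (Spearman). Across the 50 of Chr_Y_B it was -0.16 and -0.15. Among the models that were not silent it was -0.09 and -0.10 on Chr_Y_A (n = 22), and -0.30 and -0.44 on Chr_Y_B (n = 18). These are correlations across models of the same libraries, given without a test because models are not independent replicates. On Chr_Y_A the window from 2000001 to 2500000 held 4 strong models and 43.7% of the summed TPM of that sequence. The windows from 500001 to 1000000 and from 3000001 to 3500000 held 0 strong models, with 8 of 9 and 6 of 7 models silent. On Chr_Y_B successive windows of 500 kb held 43.8%, 40.2%, 9.42%, 0.773% and 5.79% of the summed TPM. The first 1000000 bases held 7 of its 9 strong models, and the window from 1500001 to 2000000 held 0 strong and 8 silent of 9. Models were also dense there, with 9 of the 50 from 1 to 500000 and 15 from 500001 to 1000000. The longest unbroken stretch of silent models covered 15 models over 620 kb of Chr_Y_B, from 1214856 to 1835303. On Chr_Y_A the longest by number covered 8 models from 1561344 to 1943525, and the longest by distance 6 models over 640 kb from 189826 to 829426.

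A strong model stood next in order to 8 of the 12 strong models of Chr_Y_A, and to 22 of all 63 models there. On Chr_Y_B it did so for 3 of the 9 strong models and 14 of all 50, similar shares. There were 6 models nested within the bounds of another, none with an exon in common with its host. Model 46 of Chr_Y_A (2259502 to 2261294) lies within model 45 on the same strand and had 1.69 ± 0.183 TPM, where its host had 21.2 ± 1.77 (SD, n = 3, Tak-1). Model 8 of Chr_Y_B (416874 to 419867) had 3.46 ± 0.732 TPM within a host at 56.3 TPM, also on the same strand. Within models 19 and 25 of Chr_Y_B, hosts at 20.7 and 26.1 TPM, the nested models on the opposite strand had 0 counts in Tak-1. The other 2 nested models and their hosts were all at 0 counts. Exons of opposite strands overlapped in a single place, over 917 bases, between the strong model 7 of Chr_Y_B and the silent model 9. Model 9 had 0 counts in all 6 libraries.

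The share of strong models was larger among models with 3 or more exon blocks than among those with 1 or 2. All 5 models with over 10 exon blocks were strong, while 2 of 34 with 1 block and 1 of 29 with 2 blocks were. With 3 to 5 blocks 9 of 33 were strong, and with 6 to 10 blocks 4 of 12. On Chr_Y_A alone the share was 37.5% with 3 to 5 blocks and 28.6% with 6 to 10. The share of silent models did not fall steadily, at 64.7% with 1 block, 79.3% with 2, 63.6% with 3 to 5 and 58.3% with 6 to 10. Elsewhere in the table the share of strong models also went up, from 23.0% with 1 block to 77.6% with over 10. Silence was not limited to models of simple structure, since 13 silent models had 5 or more blocks and 1 of them had 9. In every class up to 10 blocks the share of silent models on the male sequences was above that elsewhere, for example 63.6% against 23.5% with 3 to 5 blocks and 58.3% against 7.38% with 6 to 10.

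The 5 strong models with over 10 blocks differ widely in size. Model 19 of Chr_Y_B (844857 to 902050, minus strand) has 28 blocks, the most of any, over a span of 57194 bases, and had 20.7 ± 3.40 TPM in Tak-1 (SD, n = 3). Model 45 of Chr_Y_A (2207860 to 2262208) has the longest exon sequence, 9249 bases in 16 blocks, and had 21.2 TPM. On Chr_Y_B the longest exon sequence, 4867 bases, belongs to model 7, which has 21 blocks. The correlation of log2(TPM + 0.1) with the log2 number of blocks was 0.30 (Pearson) and 0.16 (Spearman) on Chr_Y_A, n = 63, and 0.54 and 0.44 on Chr_Y_B, n = 50. Among the models that were not silent it was higher, 0.68 and 0.73 on Chr_Y_A (n = 22) and 0.63 and 0.64 on Chr_Y_B (n = 18). Over models elsewhere that were not silent it was 0.25 by either measure (n = 14020). With silent models included it was 0.42 by either measure elsewhere (n = 19174), and 0.40 (Pearson) and 0.27 (Spearman) over the 113 male models. With silent models included, the values of Chr_Y_B thus still lay above those elsewhere, and those of Chr_Y_A lay below.

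Exon length went with level in a similar way. Of 36 models of up to 1000 bases, 34 were silent and 0 strong, against 63.3% silent and 17.2% strong among models of that length elsewhere. Of 19 models over 3000 bases, 10 were strong and 6 silent, against 64.2% and 6.73% elsewhere. The longest silent model, model 15 of Chr_Y_A, has 4463 bases of exon in 4 blocks and had 0 counts in all 6 libraries. Model 18 of Chr_Y_B has the same exon length in 13 blocks and had 27.5 ± 2.18 TPM in Tak-1 (SD, n = 3). The Pearson correlation of log2 level with log2 exon length was 0.47 on Chr_Y_A (Spearman 0.55) and 0.58 on Chr_Y_B (Spearman 0.67). Without the silent models it was 0.52 on Chr_Y_A (n = 22) but 0.095 on Chr_Y_B (n = 18). Elsewhere it was 0.37 over all models (n = 19174) and 0.039 without the silent ones (n = 14020). Short models have fewer reads at the same TPM, so a low level in them is harder to tell from 0. Length and block number rise together and were not separated.

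**Figure D2:**
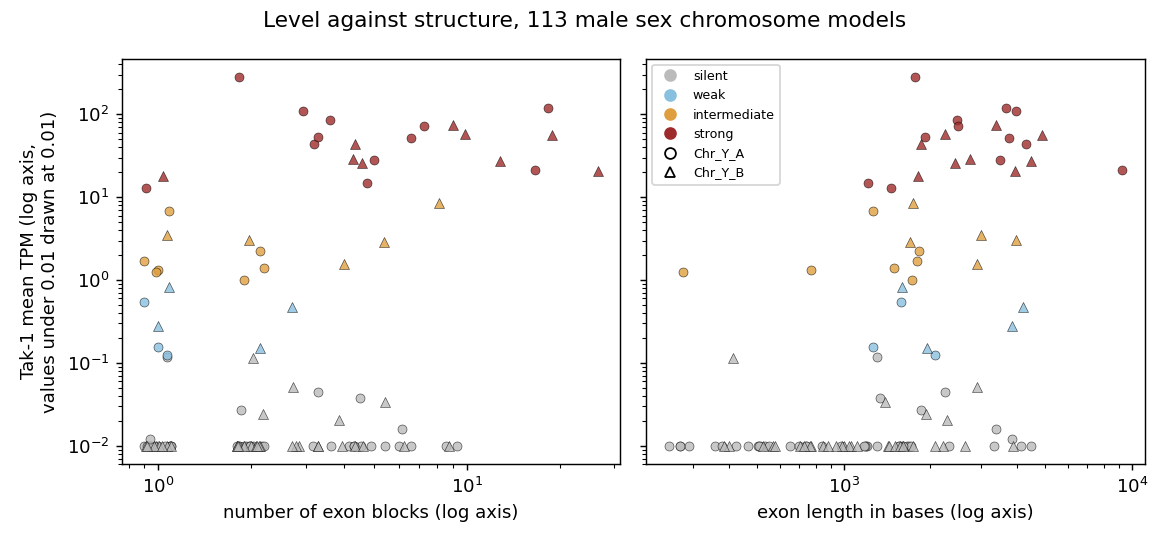
Mean Tak-1 TPM (log axis) of the 113 models against the number of exon blocks (left, log axis, points spread sideways for visibility) and against exon length in bases (right, log axis). Colours mark level classes, circles Chr_Y_A and triangles Chr_Y_B. All 5 models with over 10 blocks are strong, and no model of up to 1000 bases is.

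The exon blocks of the male models lay far apart. Among the 79 models with at least 2 blocks the mean gap between blocks, close to the mean intron size, had a median of 923 bases, against 295 bases over 14811 such models elsewhere. In the strong class the medians were 1972 bases for 19 male models and 311 bases for 8097 others. The exons themselves differed less, with median lengths of 3366 and 2451 bases in these 2 sets. As a result the strong male models with introns spanned a median of 11839 bases, against 4433 elsewhere. Strong models of Chr_Y_B spanned more than those of Chr_Y_A, with medians of 23057 bases (8 models) and 9933 bases (11 models). Silent male models with at least 2 blocks had a median gap of 695 bases, against 253 elsewhere.

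**Figure D3:**
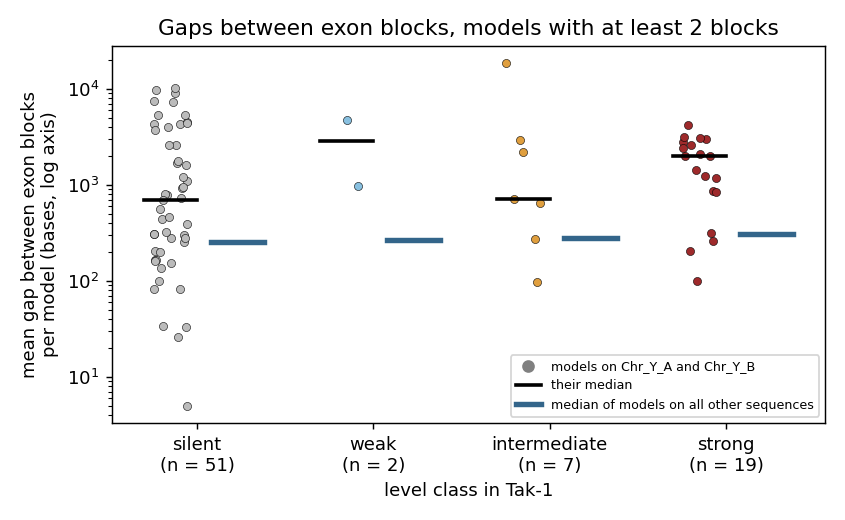
Mean gap between exon blocks in bases (log axis) for the 79 male models with at least 2 blocks, by level class in Tak-1. Points are models, black bars their medians and blue bars the medians of models on all other sequences. In the strong class the medians are 1972 and 311 bases.

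Whether each model kept its level in the mutant was the next question. Of the 113 models 31 had enough reads to be tested, 21 strong and 10 intermediate in Tak-1. Among them 0 rose and 5 fell (edgeR's quasi-likelihood test, Benjamini-Hochberg adjusted p under 0.05 over all genes). Over all 12313 genes tested 19.3% rose and 21.1% fell, together 40.4%. A fall of at least 2-fold was called for 4 of the 31, against 7.16% of all genes. Among the 5 falls, model 58 of Chr_Y_A and model 44 of Chr_Y_B passed the filter on low counts through their Tak-1 libraries alone, so they could be called only as falls and lend these counts no support. At an unadjusted p under 0.05 the same test gave 3 rises and 5 falls among the 31. Over all 12313 genes it gave 2898 rises and 3078 falls at that limit. DESeq2 called 0 rises and 6 falls among 40 models, against 14.7% and 18.0% of all genes (32.7% together). limma-voom called 0 rises and 5 falls among 31, against 19.3% and 20.8% (40.2% together). Of the other 82 models, none was tested in the main fit. In 10 of the 31 the TPM values of the 3 Mpbes1 and the 3 Tak-1 libraries did not overlap, against 52.4% of all genes tested. The median log2 fold change of the 31 was -0.01 and that of all genes 0.01.

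A p that misses the threshold does not show that a level was kept, so the 95% interval of each log2 fold change was used. For 19 of the 31 the whole interval lay within 0.5 of 0, which was so for 52.0% of all genes tested. All 19 were strong models. Their log2 fold changes ran from -0.14 to 0.18, and their interval bounds from -0.34 to 0.33. For models with a mean of at least 10 TPM over all 6 libraries, 19 of 21 male models had such an interval and 1 was called, against 64.5% and 39.8% of 9286 other genes at that level. Under 10 TPM, 0 of 10 male models had such an interval and 4 were called (40.0%), against 13.3% and 42.5% of 2996 other genes. Those called include models 58 of Chr_Y_A and 44 of Chr_Y_B, which could be called only as falls. These comparisons are a description, since the difference between the male models and the others was not tested. On Chr_Y_B all 9 strong models had intervals within 0.5 of 0, and on Chr_Y_A 10 of 12 did.

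The narrowest intervals belonged to 5 models. Model 56 of Chr_Y_A had 52.6, 53.7 and 49.8 TPM in Tak-1 and 53.1, 51.4 and 52.9 in Mpbes1, with a log2 fold change of -0.01 ± 0.06 (SE) and an interval of -0.13 to 0.12. Its groups overlap fully. Model 7 of Chr_Y_A had a log2 fold change of -0.11 (interval -0.25 to 0.02) and model 45 one of 0.11 (-0.03 to 0.26). Model 1 of Chr_Y_B had 0.06 (-0.07 to 0.20) and model 7 of Chr_Y_B 0.13 (-0.002 to 0.27). For the strongest model, 41 of Chr_Y_A, the interval was -0.23 to 0.17, for model 24 it was -0.31 to 0.10 and for model 25 it was -0.34 to 0.06. Without Tak-1 replicate 3 model 24 was called as a fall (log2 fold change -0.21, edgeR adjusted p = 0.030). Model 25 was called as a fall without Tak-1 replicate 2 (-0.23, edgeR adjusted p = 0.037). In each of these fits 36.6% of all genes tested were called.

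Among the strong models not called, the largest difference was that of model 29 of Chr_Y_A (1371338 to 1373371, minus strand, 5 blocks). It had 12.5, 15.8 and 16.1 TPM in Tak-1 and 19.7, 18.5 and 18.1 in Mpbes1. All Mpbes1 values lay above the Tak-1 values, and the difference was 0.32 ± 0.14 on the log2 scale (adjusted p = 0.086 in edgeR). Model 4 of Chr_Y_A (0.17 ± 0.07, edgeR adjusted p = 0.064) and model 5 of Chr_Y_B (0.18 ± 0.07, adjusted p = 0.070) also had higher values in all Mpbes1 libraries without passing the threshold. With scaling by library size only, these 2 and model 7 of Chr_Y_B were called as rises, 3 of 31, beside 5 falls, against 22.8% and 18.6% of all genes (41.4% together). That scaling moved the median log2 fold change of all genes to 0.05. Model 27 of Chr_Y_B, just under the strong limit at 8.59 ± 0.918 TPM in Tak-1, had 10.5 ± 0.852 TPM in Mpbes1 (SD, n = 3), not called (edgeR adjusted p = 0.17). Its Mpbes1 values all lay above its Tak-1 values. The same held for model 7 of Chr_Y_B, with 53.5 to 58.4 TPM in Tak-1 and 60.2 to 66.0 in Mpbes1. Besides models 4 and 29 of Chr_Y_A and 5, 7 and 27 of Chr_Y_B, no model that was not called had groups without overlap.

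The 5 models that fell were among the lower ones tested, from 1.41 to 13.1 TPM in Tak-1, and in each the 3 Mpbes1 values lay below the 3 Tak-1 values. The largest fall was that of MapolyY_A0058.v3.1, model 58 of Chr_Y_A (3256741 to 3276682, minus strand), which has 2 exon blocks 18442 bases apart. It had 13, 16 and 13 counts in Tak-1 and 1, 2 and 1 counts in Mpbes1. Its log2 fold change was -3.45 (95% interval -4.57 to -2.33; edgeR adjusted p = 3.1e-04). Next was MapolyY_B0044.v3.1, model 44 of Chr_Y_B (1903668 to 1908221, plus strand, 5 blocks), the only model not silent between 1177090 and 2337640 on that sequence. It had 36, 31 and 29 counts in Tak-1 and 7, 8 and 16 in Mpbes1, a log2 fold change of -1.81 (-2.44 to -1.19; edgeR adjusted p = 4.8e-04).

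The other 3 fell by about the same amount. Models 47 (2268250 to 2269704) and 48 (2272264 to 2273529) of Chr_Y_A are direct neighbours 2.56 kb apart on the plus strand, each with 1 exon block. Model 47 had 12.8, 14.7 and 11.7 TPM in Tak-1 and 7.13, 5.89 and 7.84 in Mpbes1, and is the lowest of the strong class. Model 48 had 6.25, 7.02 and 7.06 TPM in Tak-1 and 3.46, 2.92 and 3.48 in Mpbes1. Their log2 fold changes were -0.92 ± 0.16 and -1.06 ± 0.21 (SE; edgeR adjusted p = 9.0e-04 and 0.0021). Models 44 and 45, which begin before them on the same sequence, had log2 fold changes of 0.02 and 0.11, with intervals within 0.5 of 0. Model 46, directly before model 47 and nested in model 45, had -0.14 with an interval of -0.78 to 0.50. Whether reads of models 47 and 48 come from 1 transcript or several was not analysed here.

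Model 49 of Chr_Y_B (2453675 to 2458281, minus strand, 2 blocks) had 3.54, 3.43 and 2.18 TPM in Tak-1 and 1.68, 1.42 and 1.39 in Mpbes1. It fell by 1.05 ± 0.22 on the log2 scale (adjusted p = 0.0031 in edgeR). The next base after it begins model 50 (2458282 to 2459872), on the same strand with 1 block. That model, at 0.827 ± 0.107 TPM the nearest below the limit of 1 TPM, had too few reads for the main test, with 8, 9 and 9 counts in Tak-1 and 2, 0 and 1 in Mpbes1. When no filter was applied it was called (log2 fold change -3.13; edgeR adjusted p = 0.0026), as was model 31 of Chr_Y_A (1553392 to 1554973) with 17 counts in the wild type and 3 in the mutant (adjusted p = 0.023). That fit tested 55 of the models and called 0 rises and 7 falls, against 15.3% and 17.0% of 16262 genes (32.2% together). With at least 5 CPM required in 3 libraries, 22 models were tested and only model 47 of Chr_Y_A was called, against 19.5% rises and 20.8% falls over all genes (40.3% together).

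**Figure D4:**
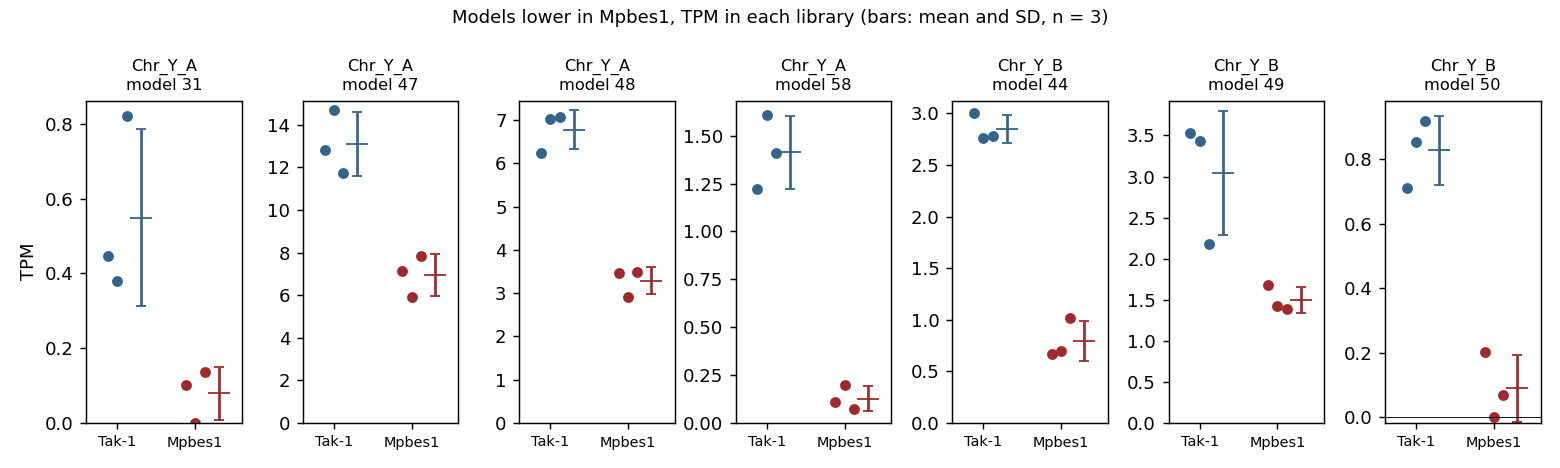
TPM in each library for the 5 models called as falls and for model 31 of Chr_Y_A and model 50 of Chr_Y_B, called only without a filter on low counts. Points are libraries, bars the mean and SD (n = 3). In all 7 panels the Mpbes1 points lie below the Tak-1 points.

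For the least expressed models tested, the data bound a change only loosely. Among those not called, the widest intervals were those of model 55 of Chr_Y_A (2851306 to 2853295), which lies just over the limit of 1 TPM, of model 46 of the same sequence and of model 6 of Chr_Y_B. Model 55 had 18, 12 and 5 counts in Tak-1 and 16, 8 and 10 in Mpbes1, and its interval ran from -1.24 to 0.87. The interval of model 46 was -0.78 to 0.50 and that of model 6 of Chr_Y_B (296101 to 299286) -0.85 to 0.28. Next came model 14 of Chr_Y_A (832686 to 836695) with -0.50 to 0.61 and the nested model 8 of Chr_Y_B with -1.02 to 0.03. The other 82 models were not tested in the main fit. Of the 24 among them that the fit without a filter could test, models 50 of Chr_Y_B and 31 of Chr_Y_A were called. The share called among all genes that only that fit could test was not computed.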

How the data were processed

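The authors deposited raw read counts per gene model, whole numbers without normalization, for 6 libraries, with the columns that featureCounts writes, per the file headers. Alignment with STAR (2.5.2b), counting with featureCounts (1.5.1) and edgeR appear in the submitters' processing notes. Genome build, strand setting and handling of multiple alignments: not given in the sources used here. Reads of near-identical copies or of overlapping opposite strands may have been lost or mixed. The merged exon length, a deposited value, differed from the sum of the merged exon coordinates in 0 models. Per the labels' protocols a strand-specific poly(A) kit was used. Each library came from another plant, per the series' design text. Within genotypes the chi-square of a library pair was 3.07 to 10.9 per model, above the value of 1 that sampling noise gives, so none was counted as a duplicate.

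TPM was computed per library from counts and exon length. The test was edgeR 4.0.16 in R 4.3.3 (quasi-likelihood, robust, TMM, filterByExpr, genotype the only term) over the whole table, with Benjamini-Hochberg adjustment over 12313 genes. Standard errors and 95% intervals were derived from the F statistic. limma 3.58.1 and DESeq2 1.42.0 were alternatives. The biological coefficient of variation was 8.89%. The code was tested on simulated data. Named models were the 10 strongest, those called, those with the 5 narrowest and 5 widest intervals among the models not called, those at class limits, and the longest and most exon-rich of each sequence. Models 4, 29 and 31 of Chr_Y_A, model 5 of Chr_Y_B and the nested models were named after their values were seen. Members, classes and lists were chosen with earlier results of these data known. Upper limits for models at 0 counts cover counting error only (3 counts). Windows were 500 kb.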

Additional observations from a re-analysis of the deposited data

How the results depend on the processing

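The 40 results were recomputed 402 times under the alternatives, and in 362 cases neither direction nor call changed, a count moved by at most 1.5 times and a correlation by less than its spread. Among the models named by the rules above and not called in the main fit, 17 values changed sign in 8 models. Of the tested models outside those rules, model 6 of Chr_Y_A (-0.0937 to 0.0111 over the fits) and model 48 of Chr_Y_B (-0.0870 to 0.0678) also changed sign. With library size only, models 41 and 56 of Chr_Y_A and 21 of Chr_Y_B had 0.0143, 0.0354 and 0.0312. With 1 library left out, the log2 fold change ran from -0.0781 to 0.209 in model 14 of Chr_Y_A, from -0.0934 to 0.0657 in model 41, from -0.0245 to 0.0646 in model 44, from -0.258 to 0.0591 in model 46, from -0.644 to 0.204 in model 55 and from -0.0153 to 0.00758 in model 56. On Chr_Y_B it ran from -0.0679 to 0.106 in model 19 and from -0.0357 to 0.0207 in model 21. The 5 calls among the male models became 8 with library size only (3 rises, 5 falls). They became 1 with at least 5 CPM in 3 libraries, where 22 models were tested. With 1 library left out they were 5 to 6, while 31.8% to 38.7% of all genes tested were called. The 5 male models that fell in the main fit were called in every fit that tested them. Models 58 of Chr_Y_A and 44 of Chr_Y_B passed the filter on low counts through their Tak-1 libraries alone. Their repeated calls therefore lend no support. Model 24 of Chr_Y_A was also called as a fall without Tak-1 replicate 3, model 25 without Tak-1 replicate 2, and model 7 of Chr_Y_B as a rise with library size only. With the replicate block the male models still had 5 calls, and all genes 5246 instead of 4977. The correlations of same-numbered deviations were 0.17, -0.03 and 0.14, and in 4 of 6 libraries the best match had the same number. Whether the numbers pair the samples is not settled by these values. The difference in the share of counts on both sequences, 0.00462 percentage points, turned to -0.00129 with the TMM-scaled denominator. That on Chr_Y_A ran from -0.00144 to 0.00109 and that in detected models from -1.17 to 0.833 with 1 library left out. With silent set at 0 counts, 18 models were weak. Correlations (Pearson) with start, blocks and length without silent models were -0.092, 0.678 and 0.518 on Chr_Y_A and -0.301, 0.635 and 0.095 on Chr_Y_B. With a pseudocount of 1 those with start and blocks were -0.051 and 0.355 on Chr_Y_A and -0.204 and 0.578 on Chr_Y_B, where length gave 0.525. Genomic span in place of length gave 0.318 and 0.502. The cause of these shifts was not tested. Depth limits statements on models at 0 counts to 0.611 TPM.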
